A study of Homo sapiens with 6 samples.

Results

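The hepatocyte lineage transcription factors were taken as 8 genes, *HNF4A*, *FOXA1*, *FOXA2*, *FOXA3*, *CEBPA*, *ONECUT1*, *NR5A2* and *PROX1*, selected by symbol for their known part in hepatocyte identity. All 8 had a row among the 20381 genes of the count table. Poly(A) RNA was sequenced from HCCLM3, an established human hepatocellular carcinoma (HCC) line known for its metastatic behavior. The cells were stably transduced with a lentivirus that carried *PON1* (PON1-OE, 3 libraries) or with the empty vector (NC, 3 libraries), so both groups shared the parental line, a lentiviral vector and puromycin selection. The question put to the members was their level in HCCLM3 and any difference in PON1-OE. The promoter of the transgene, and whether each line was a clone or a pool, are not given in the sources used here. The series design text places lysis 24 h after transfection, whereas the sample labels and the methods describe stable lines. How the 3 libraries of a group were derived is not stated either, so p-values measure the spread between these libraries, which may be technical.

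Hepatocyte identity is held by a small group of DNA-binding proteins that act on each other's genes as well as on the genes of liver function. FOXA1, FOXA2 and FOXA3 are forkhead proteins that open chromatin at liver enhancers, HNF4A is a nuclear receptor at the promoters of a large share of hepatocyte genes, and CEBPA is a basic leucine zipper protein of differentiated, slowly dividing hepatocytes. ONECUT1 (HNF6) acts in liver and bile duct development, NR5A2 (LRH-1) is a nuclear receptor of bile acid and cholesterol genes, and PROX1 is a homeodomain protein of hepatoblast outgrowth that can bind HNF4A and NR5A2 as a corepressor.

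The estimated counts of a library summed to between 15706672 and 17948383. *PON1* had 0, 2 and 3 rounded counts in the NC libraries, in the order of their replicate numbers, against 155, 181 and 167 in the PON1-OE libraries, so the groups were as labelled. Between PON1-OE and NC, 81 of the 11958 genes tested (0.677%) passed 0.05 after Benjamini-Hochberg adjustment of edgeR's quasi-likelihood p-values, 60 higher and 21 lower in PON1-OE. This count was between 11 (without NC replicate 3) and 104 (without PON1-OE replicate 2) when single libraries were left out, and 29 without NC replicate 1. Leaving out PON1-OE replicate 1 gave 50 genes, and leaving out PON1-OE replicate 3 gave 20.

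The promoters of *HNF4A*, *CEBPA* and the downstream start of *NR5A2* are shown as examples, since the members are known to bind at each other's promoters. Of the windows searched, only those of *HNF4A* and the downstream one of *NR5A2* held a match to a binding motif of such factors. The window of *CEBPA* held only a TATA box. The other windows were searched but are not shown. RefSeq (GRCh38.p14) held 8 promoter windows for 6 of the members, of which the 250 bases before the annotated start were searched on both strands for 6 motifs. These were ATTGAT for ONECUT factors, TGTTTAC for FOXA factors, CAAAGTCCA for HNF4, TTGCNNAA for C/EBP proteins, CAAGGTCA for NR5A receptors and TATAAA for the TATA box. Capitals mark the matches in the sequences below, which are written 5′ to 3′ on the strand of the gene. *HNF4A* has an upstream and a downstream start, and each is shown.
*HNF4A*, upstream start, chr20:44355449-44355698, plus strand: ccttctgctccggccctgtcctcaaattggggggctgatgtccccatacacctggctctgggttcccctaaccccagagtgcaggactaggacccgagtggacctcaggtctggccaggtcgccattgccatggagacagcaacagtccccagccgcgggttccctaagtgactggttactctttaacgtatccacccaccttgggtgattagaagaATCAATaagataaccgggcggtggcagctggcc
*HNF4A*, downstream start, chr20:44400989-44401238, plus strand: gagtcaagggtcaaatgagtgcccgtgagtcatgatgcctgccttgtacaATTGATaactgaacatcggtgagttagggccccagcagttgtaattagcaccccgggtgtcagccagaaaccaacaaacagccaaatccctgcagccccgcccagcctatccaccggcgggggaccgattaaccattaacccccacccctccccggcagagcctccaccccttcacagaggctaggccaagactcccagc
*NR5A2*, downstream start, chr1:200042341-200042590, plus strand: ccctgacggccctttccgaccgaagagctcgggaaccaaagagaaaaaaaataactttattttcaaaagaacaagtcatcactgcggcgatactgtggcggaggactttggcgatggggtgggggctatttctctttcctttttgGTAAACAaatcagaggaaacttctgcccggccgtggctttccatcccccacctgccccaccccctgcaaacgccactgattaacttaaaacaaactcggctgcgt
*CEBPA*, chr19:33302535-33302784, minus strand: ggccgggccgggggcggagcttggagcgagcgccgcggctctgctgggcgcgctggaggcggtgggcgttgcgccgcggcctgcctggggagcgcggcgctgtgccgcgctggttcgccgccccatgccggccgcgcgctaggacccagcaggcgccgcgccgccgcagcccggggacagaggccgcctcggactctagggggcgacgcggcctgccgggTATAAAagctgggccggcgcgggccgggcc

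Both *HNF4A* windows held the ONECUT letters, at positions -33 to -28 of the upstream start (as ATCAAT) and -200 to -195 of the downstream start, and 5.58% of all 35116 promoter windows held them. The FOXA letters stood in the downstream window of *NR5A2* (2.98% of all windows). TATAAA stood at -30 to -25 in the *CEBPA* window, and at the same place in that of *FOXA3* (10.7% of all windows held it on either strand). The upstream window of *NR5A2* held TTTATA, its reverse complement, at -201 to -196. The windows of *FOXA1* and *ONECUT1* held no match to any of the 6 motifs. The GC content was 81.2% in the *CEBPA* window, 58.4% and 58.0% in those of *HNF4A* and 50.8% in the downstream one of *NR5A2*, against a median of 58.0% over all windows. A match describes letters and not a bound site. The counts per gene do not separate the transcripts of the different starts of *HNF4A* or of *NR5A2*.

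Levels were compared between genes as RPKM, that is TMM-normalized counts per 1000000 (CPM) divided by the exon length of the gene in kb. The median over the genes tested that have a length was 5.54 RPKM in NC. *FOXA2* had the highest level of the members with 24.2 ± 0.652 RPKM in NC (SD, n = 3), followed by *CEBPA* with 17.2 ± 1.14 RPKM, *HNF4A* with 10.8 ± 0.734 RPKM and *FOXA3* with 9.62 ± 0.0925 RPKM. These 4 lay above the median of the genes tested, and 83.0% of those genes lay below *FOXA2*. *FOXA1* followed with 2.65 ± 0.449 RPKM, *PROX1* with 2.15 ± 0.0357 RPKM and *NR5A2* with 0.736 ± 0.0182 RPKM. *ONECUT1* was near the limit of detection with 0.107 ± 0.0556 RPKM.

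In this order over all 6 libraries, *HNF4A* and *FOXA3* overlapped, since the lowest *HNF4A* value (9.91 RPKM) was below the highest *FOXA3* value (10.1 RPKM). *FOXA1* and *PROX1* overlapped as well, with a lowest *FOXA1* value of 2.17 RPKM and a highest *PROX1* value of 2.24 RPKM. The other neighbors were apart in every library, among them *FOXA2* (lowest 23.7 RPKM) and *CEBPA* (highest 18.5 RPKM), and *FOXA3* was 3.64 times *FOXA1* by the NC means. With the longest transcript as the gene length the order was the same.

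**Figure D1:**
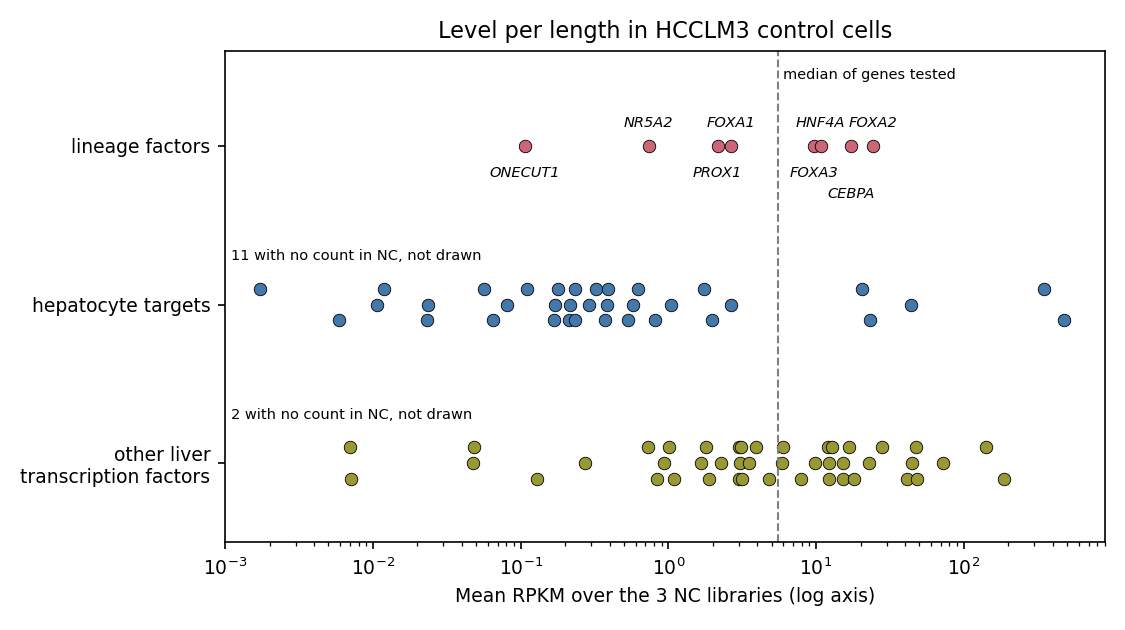
Mean RPKM over the 3 NC libraries on a log axis for the 8 lineage factors (red), 46 hepatocyte target genes (blue) and 46 other liver transcription factors (green), 1 point a gene, spread vertically in the lower rows only to separate points. The dashed line is the median of the genes tested. *FOXA2*, *CEBPA*, *HNF4A* and *FOXA3* lie to its right, as do 5 of the 46 targets.

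The label field for the cell line holds the word hepatocyte and that for the tissue holds HCCLM3, so the fields may be shifted. The cells were checked against 46 genes, called hepatocyte targets here, most of which are textbook targets of these factors. The list also holds the general epithelial keratins *KRT8* and *KRT18*. Secreted plasma proteins of the list were found at very different levels. *ALB* (albumin) had 6, 11 and 13 counts in the NC libraries and 11, 4 and 7 in the PON1-OE libraries. *SERPINA1* (alpha-1 antitrypsin) had at most 1 count in a library, *TTR* (transthyretin) at most 2 and *APOA1*, the main protein of HDL, at most 5. All libraries were at 0 for 11 of the 46 targets, among them *HP* (haptoglobin), *CYP7A1* (the rate-limiting enzyme of bile acid synthesis) and *PCK1* (gluconeogenesis), and 16 of the 46 had no library above 3 counts, which is 0.166 to 0.192 CPM and covers counting error only.

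Few targets were high per length, although more were detected by their counts. In NC, 5 of the 46 were above the median RPKM of the genes tested, the epithelial keratins *KRT18* (475 RPKM) and *KRT8* (350 RPKM), the canalicular transporter *ABCC2* (44.1 RPKM), the retinol carrier *RBP4* (23.3 RPKM) and *APOH* (20.5 RPKM). *TF* (transferrin) had 338 to 396 counts per NC library but was at 0.811 RPKM. Its mean of 21.3 CPM in NC was close to the 21.1 CPM of *FOXA3*, which lay above the median per length. *LIPC* with 121 to 170 counts per NC library and *APOB* with 88 to 106 were also detected but below the median. Of the lineage factors 4 of 8 were above that median, and of the 46 other liver transcription factors 21. These counts rest on the length of all annotated exons of a gene. The longest transcript was tried only for the order of the members.

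Among relatives of the members, *HNF4G*, the paralog of *HNF4A* that is better known from the intestine, was at 5.20 RPKM in NC, and the ratio of *HNF4A* to *HNF4G* was 1.84 to 2.52 over the 6 libraries. *CEBPB*, a stress-responsive C/EBP protein, was at 141 RPKM in NC, and *CEBPA* was 0.0991 to 0.129 of it. *ONECUT2* was low as well (0.128 RPKM), as was the bile acid receptor *NR1H4* (1.02 RPKM), and *NR1I3* had no count. The gut factor *CDX2* was at 1.51 RPKM.

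No member was called different between PON1-OE and NC. Of the 8, 7 passed filterByExpr, and in edgeR's quasi-likelihood test 0 of these 7 had an adjusted p under 0.05 (0.677% of all genes tested had). Limma-voom called 0 as well, and DESeq2, which gave an adjusted p for only 3 of the 7 (*HNF4A*, *FOXA2* and *CEBPA*), also called 0. The lowest adjusted p of the 7 in edgeR was 0.442. At an unadjusted p under 0.05, 2 of the 7 were reached in edgeR, *CEBPA* and *FOXA1*, both lower in PON1-OE, where 11.1% of all genes tested were (5.17% lower and 5.91% higher), and 1 in limma-voom and 0 in DESeq2. Of the 7, 5 had a log2FC (PON1-OE against NC, negative where lower in PON1-OE) below 0 and 2 above, where 51.0% of all genes tested were below 0, and their median was -0.07 beside -0.0025 for all genes tested. Without PON1-OE replicate 3 the median of the 7 was 0.0061. In such bulk libraries fewer cells that express a gene and less RNA per cell cannot be told apart.

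**Figure D2:**
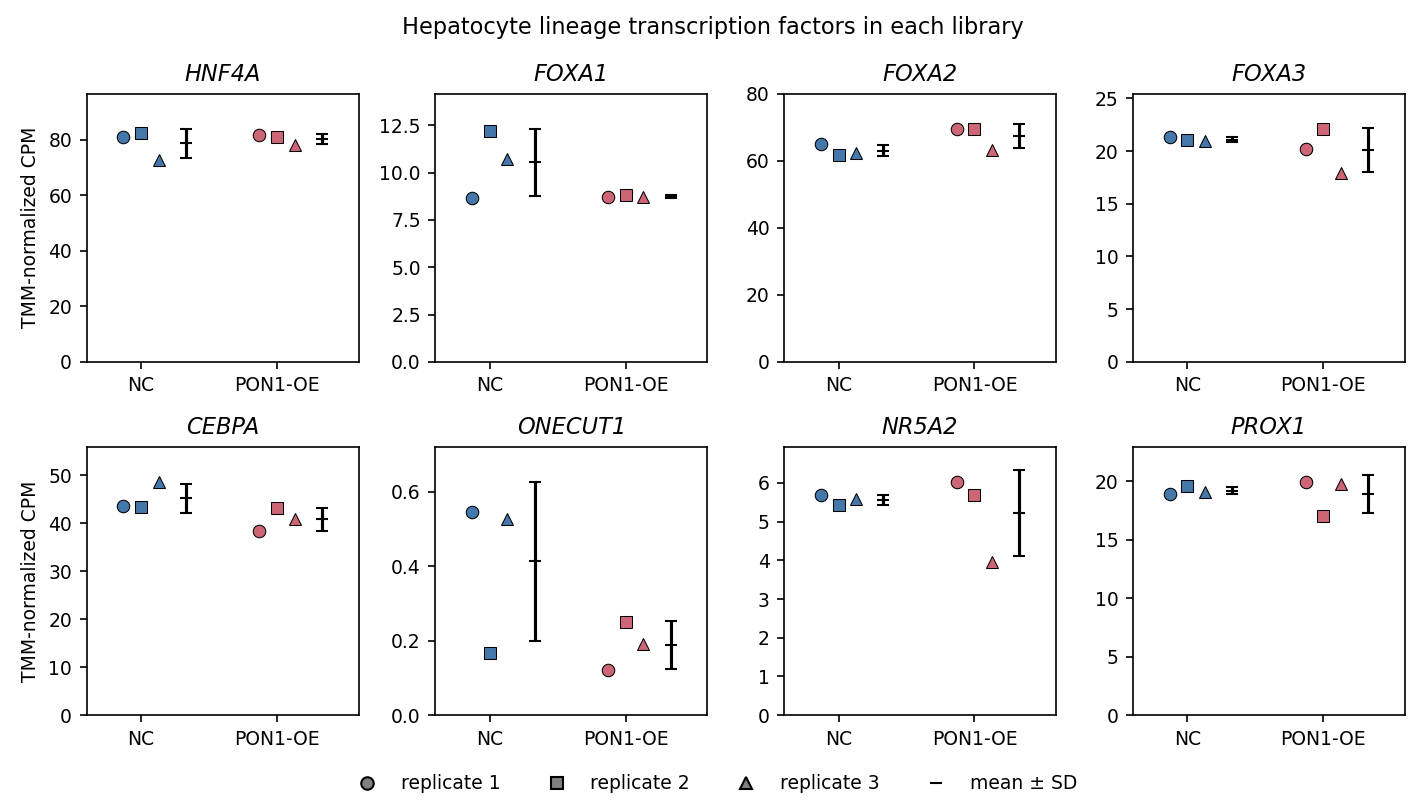
TMM-normalized CPM of each factor in the 3 NC (blue) and 3 PON1-OE (red) libraries, with the replicate given by the symbol and the mean ± SD beside the points. The axes start at 0 and differ between panels. The libraries of the groups are apart only for *CEBPA*, by a narrow gap, and *ONECUT1* has few counts.

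*HNF4A* (ENSG00000101076) lies on the plus strand of chromosome 20 from 44355700 to 44434596 in GENCODE v29 on GRCh38. Its level was 80.8, 82.5 and 72.5 CPM in NC replicates 1 to 3 and 81.6, 80.9 and 78.1 CPM in PON1-OE replicates 1 to 3. The groups overlapped, and NC replicate 3 was the lowest of all libraries. The log2FC was 0.03 (standard error 0.055, edgeR adjusted p = 0.898), with a 95% interval from -5.75% to 10.5%. The sign turned to -0.03 without NC replicate 3. Whatever the direction, a change of *HNF4A* beyond this interval was not seen at a depth of 1223 to 1492 counts per library.

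*FOXA2* (ENSG00000125798, minus strand of chromosome 20 from 22581005 to 22585455) was at 64.9, 61.7 and 62.3 CPM in NC replicates 1 to 3 and at 69.6, 69.5 and 63.2 CPM in PON1-OE replicates 1 to 3. PON1-OE replicate 3 fell inside the range of NC, and the other PON1-OE libraries were above it. The log2FC was 0.10 (standard error 0.056, 95% interval -1.22% to 16.1%), with an unadjusted p of 0.0922 and an edgeR adjusted p of 0.547. Without PON1-OE replicate 3 the log2FC was 0.15, with an unadjusted p of 0.0260 and an adjusted p of 0.536 in edgeR. Of the exonic bases of *FOXA2*, 70 are also in exons of a gene on the same strand in GENCODE v29.

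*FOXA1* (ENSG00000129514, minus strand of chromosome 14 from 37589984 to 37596059) was at 8.66, 12.2 and 10.7 CPM in NC replicates 1 to 3 and at 8.71, 8.82 and 8.68 CPM in PON1-OE replicates 1 to 3. The PON1-OE libraries lay close together, and NC replicate 1 was below all of them, so the groups overlapped (p = 0.4 by an exact two-sided permutation of the libraries). The log2FC of -0.27 (standard error 0.13, 95% interval -31.3% to -0.390%) had an unadjusted p of 0.0458 and an edgeR adjusted p of 0.443. It was -0.15 (unadjusted p = 0.295 in edgeR) without NC replicate 2, -0.26 (unadjusted p = 0.0947 in edgeR) without NC replicate 3 and -0.39 (unadjusted p = 0.00660 in edgeR) without NC replicate 1. Of the exonic bases of *FOXA1*, 16 are also in exons of an opposite-strand gene in GENCODE v29.

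*FOXA3* (ENSG00000170608, plus strand of chromosome 19 from 45863989 to 45873797) was at 21.3, 21.0 and 20.9 CPM in NC replicates 1 to 3 and at 20.2, 22.1 and 17.9 CPM in PON1-OE replicates 1 to 3. The PON1-OE libraries lay on both sides of the narrow NC range, and PON1-OE replicate 3 was the lowest. The log2FC was -0.07 (standard error 0.088, 95% interval -16.1% to 8.19%, edgeR adjusted p = 0.834), and it was 0.0061 without PON1-OE replicate 3.

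The FOXA factors recognize the same DNA letters, so their shares of the summed FOXA level per length are given as a description. *FOXA2* made up 65.2% to 67.7% of the summed RPKM in the NC libraries and 68.4% to 70.1% in the PON1-OE libraries, so that the groups did not overlap, although the CPM of *FOXA2* itself did. *FOXA3* made up 26.3% to 26.4% in NC and 23.6% to 25.9% in PON1-OE, without overlap, although its CPM overlapped too. The shares add to a whole, so those of *FOXA2* and *FOXA3* are not independent. Of all genes tested, 16.1% had CPM values without overlap, but this is a rate for single genes and not for shares. For *FOXA1* the shares were 5.90% to 8.43% and 5.68% to 6.29%, with overlap.

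*CEBPA* (ENSG00000245848, minus strand of chromosome 19 from 33299934 to 33302564) was at 43.5, 43.4 and 48.7 CPM in NC replicates 1 to 3 and at 38.5, 43.2 and 40.9 CPM in PON1-OE replicates 1 to 3. All PON1-OE libraries were lower than all NC libraries (p = 0.1 by an exact two-sided permutation, which cannot be smaller with 3 libraries against 3), although PON1-OE replicate 2 was only just under NC replicate 2. *CEBPA* was the only member of the 8 without overlap, where 16.1% of all genes tested had none (7.74% lower and 8.32% higher in PON1-OE). The ratio of its RPKM to that of *CEBPB* was 0.116 to 0.129 in NC and 0.0991 to 0.111 in PON1-OE. The log2FC was -0.15 (standard error 0.068, 95% interval -18.1% to -0.255%), with an unadjusted p of 0.0449 and an edgeR adjusted p of 0.442. Without NC replicate 3, the highest library, the log2FC was -0.09 (unadjusted p = 0.250 in edgeR), and without PON1-OE replicate 1 it was -0.10 (unadjusted p = 0.197 in edgeR). *CEBPA* has a single exon, and 1141 of its bases are also in exons of opposite-strand genes in GENCODE v29. Whether counting used strand is not given in the sources used here.

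*PROX1* (ENSG00000117707, plus strand of chromosome 1 from 213983181 to 214041502) had 313, 354 and 326 counts in the NC libraries and 328, 272 and 310 in the PON1-OE libraries, or 19.2 ± 0.319 and 18.9 ± 1.66 CPM (SD, n = 3). Apart from the low PON1-OE replicate 2, the libraries of the groups were close together. The log2FC was -0.02 (standard error 0.088, 95% interval -13.3% to 11.9%, edgeR adjusted p = 0.955) and was 0.05 without that library. In GENCODE v29, 171 of its exonic bases are also in exons of opposite-strand genes.

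*NR5A2* (ENSG00000116833, plus strand of chromosome 1 from 200027602 to 200177424) was at 5.69, 5.42 and 5.57 CPM in NC replicates 1 to 3 and at 6.03, 5.69 and 3.96 CPM in PON1-OE replicates 1 to 3. PON1-OE replicate 3 had 62 counts where the other 5 libraries had 91 to 99. The log2FC was -0.09 (standard error 0.17, 95% interval -26.0% to 19.8%, edgeR adjusted p = 0.899) and turned to 0.08 without PON1-OE replicate 3. This was also the lowest PON1-OE library for *HNF4A*, *FOXA1*, *FOXA2* and *FOXA3*.

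*ONECUT1* (ENSG00000169856, minus strand of chromosome 15 from 52756989 to 52791078) had 9, 3 and 9 counts in the NC libraries and 2, 4 and 3 in the PON1-OE libraries. NC replicate 2 fell within the range of PON1-OE. The summed counts were 21 in NC and 9 in PON1-OE. Their exact Poisson 95% intervals, which cover counting error only, overlapped, that of PON1-OE running from 4.12 to 17.1. The filter on low counts removed the gene. In a fit without the filter its log2FC was -1.10 (standard error 0.76, 95% interval -83.5% to 32.9%, edgeR adjusted p = 0.703), so that a difference was not detectable at this depth.

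**Figure D3:**
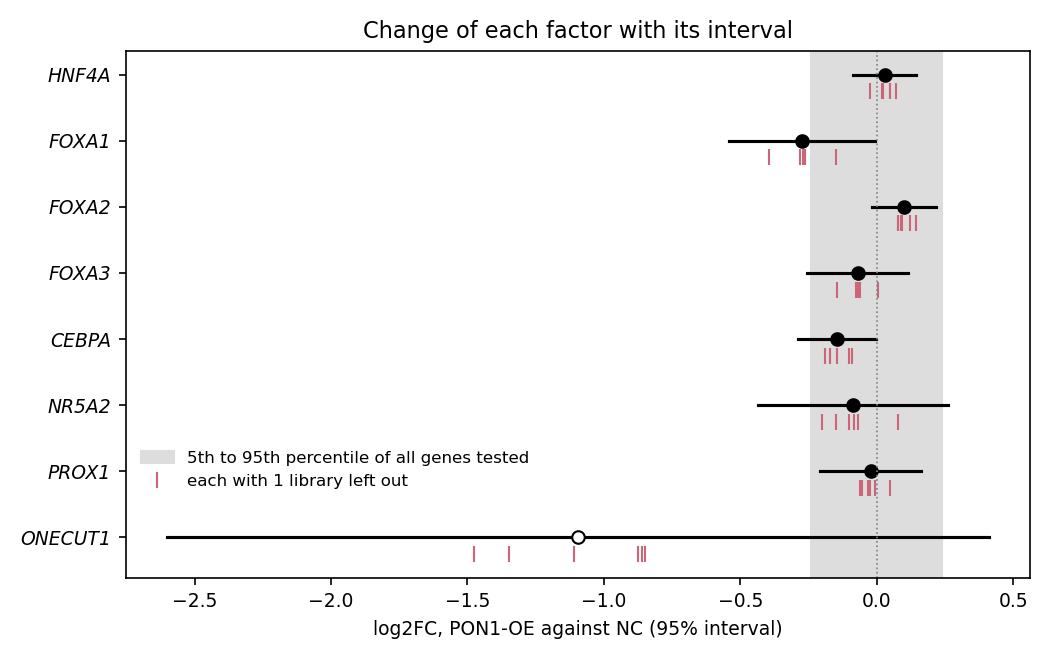
log2FC of each factor in PON1-OE against NC (points, *ONECUT1* open because it comes from the fit without the filter) with its 95% interval (lines), the values with 1 library left out (red ticks) and the 5th to 95th percentile of all genes tested (grey band, -0.24 to 0.24). The point for *FOXA1* lies at -0.27, and the sign of *HNF4A*, *FOXA3*, *NR5A2* and *PROX1* depends on which library is left out.

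The list of 46 other liver transcription factors had 40 members tested, of which 0 passed an adjusted p under 0.05 in edgeR. At an unadjusted p under 0.05 there were 7, 2 higher and 5 lower in PON1-OE, a share of 17.5% beside 11.1% of all genes tested. The median log2FC of the 40 was -0.04. *NR1H4* had the lowest log2FC of the list with -0.71 (standard error 0.23, edgeR adjusted p = 0.212), from 57, 53 and 80 counts in the NC libraries against 37, 34 and 37 in the PON1-OE libraries. *TBX3*, a T-box factor of hepatoblasts, had the highest with 0.27 (standard error 0.16, adjusted p = 0.572). The highest levels per length in this list were those of *XBP1*, a factor of the unfolded protein response, with 188 RPKM in NC, *CEBPB* and *KLF6* (72.5 RPKM), with a log2FC of 0.09, 0.06 and 0.02, all with an adjusted p over 0.3 (0.302 for *XBP1* in edgeR).

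Of 26 cofactors, 24 were tested. In edgeR 0 of the 24 had a p under 0.05 with or without adjustment (0.677% and 11.1% of all genes tested had). Their log2FC lay between -0.21 (*TLE4*, a corepressor, standard error 0.22) and 0.07 (*COP1*, a ubiquitin ligase that acts with TRIB1 on CEBPA, standard error 0.068). *TRIB1* itself was at 74.3 RPKM in NC with a log2FC of 0.04, *HDAC1* at 50.2 RPKM with 0.04 and *TLE1* at 40.0 RPKM with -0.00032.

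Of the 46 hepatocyte targets 19 were tested, and 0 passed an adjusted p under 0.05 in edgeR. At an unadjusted p under 0.05 there were 4, 1 higher and 3 lower, a share of 21.1% beside 11.1% of all genes tested. The log2FC was below 0 for 15 of the 19 and above 0 for 4 (51.0% of all genes tested were below 0), with a median of -0.17 beside -0.0025 for all genes tested. With single libraries left out the median lay between -0.20 and -0.10 and 12 to 16 of the 19 were below 0, the smallest size being without NC replicate 3. The 3 lower genes were *APOB* (log2FC -0.36), the core protein of very low density lipoprotein, *LIPC* (-0.40), hepatic lipase, and *APOH* (-0.17), with an adjusted p of 0.443, 0.361 and 0.443 in edgeR. *TDO2*, which starts tryptophan breakdown in the liver, was the gene with the highest log2FC (1.33, standard error 0.42, adjusted p = 0.206 in edgeR), from 9, 9 and 4 counts in the NC libraries against 16, 18 and 18 in the PON1-OE libraries. It was the 1 higher gene above. It reached the filter on low counts only through the PON1-OE libraries. Its size, its p and its part in the 21.1% are therefore only a description. *VTN* (vitronectin) had the lowest with -0.69 (standard error 0.48, adjusted p = 0.649 in edgeR). Its counts were 17, 11 and 12 in the NC libraries and 5, 13 and 5 in the PON1-OE libraries. It reached the filter mainly through the NC libraries. The 3 targets with the highest levels, *KRT18*, *KRT8* and *ABCC2*, had a log2FC of 0.06, -0.04 and -0.01.

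**Figure D4:**
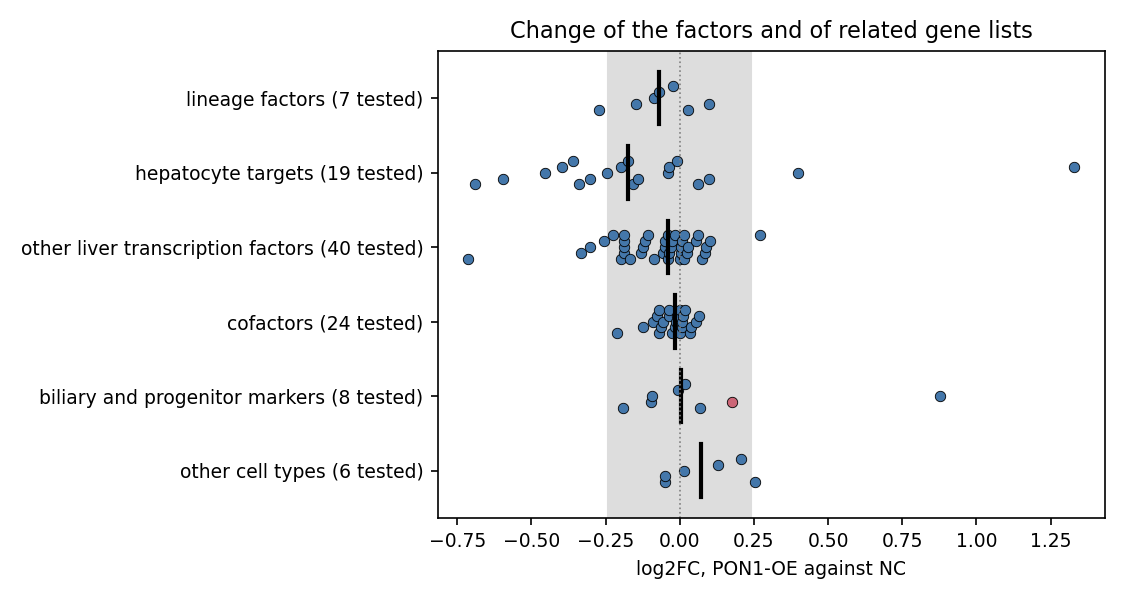
log2FC of the tested genes of each list in PON1-OE against NC, 1 point a gene, spread vertically only to separate points. Black bars are medians, the grey band is the 5th to 95th percentile of all genes tested, and red marks *SPP1*, the only gene in these lists with an adjusted p under 0.05.

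Of 14 biliary and progenitor markers 8 were tested and 1 passed an adjusted p under 0.05 in edgeR (0.677% of all genes tested did). At an unadjusted p under 0.05 there were 2, *SPP1* higher and *SOX4*, a progenitor factor, lower (log2FC -0.09, adjusted p = 0.442 in edgeR), where 11.1% of all genes tested were. *SPP1* (osteopontin) rose in PON1-OE with a log2FC of 0.17 (standard error 0.035, edgeR adjusted p = 0.0231), from 137 to 154 RPKM by the group means. The NC libraries held 5372, 5699 and 5309 counts of it and the PON1-OE libraries 5917, 5642 and 5654. The call was lost in edgeR without replicate 1 of NC (adjusted p = 0.0640) or of PON1-OE (0.0675), and without replicate 3 of NC (0.199) or of PON1-OE (0.117). *CLDN4* (131 RPKM in NC) had a log2FC of 0.02 and *HES1* (39.4 RPKM) one of -0.10. *SOX9*, which marks bile duct cells, was at 1.66 RPKM and had the lowest log2FC of these markers (-0.19). *AFP*, made by fetal hepatocytes, had the highest (0.88, standard error 0.47, adjusted p = 0.511 in edgeR). Its counts were 15, 4 and 7 in the NC libraries and 18, 16 and 11 in the PON1-OE libraries. It reached the filter on low counts through the PON1-OE libraries, so its size is only a description. The list as a whole had 4 members above and 4 below 0 and a median of 0.0057, which was between -0.05 and 0.04 with single libraries left out.

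Of 16 markers of other cell types 6 were tested, and 0 passed an adjusted p under 0.05 in edgeR. At an unadjusted p under 0.05 there was 1, *CD68* (98.3 RPKM in NC, log2FC 0.13, adjusted p = 0.252 in edgeR), a lysosomal protein that many tumor lines also express, where 11.1% of all genes tested were. *PTPRC*, *LYZ* and *CD3E* of blood cells had no count in any library. The fibroblast collagens *COL1A1* and *COL1A2* had at most 4 counts and the endothelial *CDH5* at most 1. Other markers of these cell types were detected, *VWF* with 5 to 12 counts per library and *DCN* with 58 to 107. *PECAM1*, an endothelial adhesion protein, was at 1.68 RPKM in NC with a log2FC of 0.21 (standard error 0.099, adjusted p = 0.452 in edgeR). Its CPM was higher in every PON1-OE library than in any NC library, as was that of 8.32% of all genes tested. *DCN* had the highest log2FC of this list (0.25, standard error 0.20) and *CDX2* the lowest (-0.05). The summed level of the list was 256 to 276 CPM in NC and 273 to 302 CPM in PON1-OE. Most of it was *CD68*, whose mean was 215 CPM over the NC libraries and 235 CPM over the PON1-OE libraries. The part of this list in the values of the lineage factors was not tested.

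For each of the 7 members tested, the genes with the most similar pattern of log2 CPM over the 6 libraries were named among those with a mean of at least 50 counts. They are a description, since with 6 points some of many genes lie close to any pattern. *STAM2* and *CLPTM1* were nearest to *HNF4A* (Pearson r = 0.986 and 0.961), *RAB28* and *DCP1B* to *FOXA1* (0.983 and 0.981), and *MTFMT* and *METTL22* to *FOXA2* (0.985 and 0.985). *CHPF2* and *METRN* were nearest to *FOXA3* (0.989 and 0.986), *DYNLL1* and *TGFA* to *CEBPA* (0.982 and 0.980), *CDK10* and *CSTF2T* to *NR5A2* (0.976 and 0.976) and *KCNK6* and *ZNF37A* to *PROX1* (0.997 and 0.989). No member was among the nearest genes of another. Between members r was highest for *FOXA3* and *NR5A2* (0.843), which share the low PON1-OE replicate 3, and lowest for *HNF4A* and *CEBPA* (-0.69).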

How the data were processed

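RNA-seq libraries of HCCLM3 cells, 3 PON1-OE and 3 NC, were analyzed. The authors deposited one table of estimated counts per gene without normalization, in which 10.5% of the values were not whole. The submitters' processing notes name Bowtie2 2.2.8, HISAT2, StringTie 1.3.1 and DESeq2. The genome build and annotation are not given in the sources used here. Columns were assigned by library name, and the counts were rounded. In R 4.3.3, filterByExpr of edgeR 4.0.16 kept 11958 genes, which were TMM-normalized and compared between the groups by glmQLFit and glmQLFTest (quasi-likelihood), with Benjamini-Hochberg adjustment over all genes tested. *ONECUT1* was tested without the filter (15542 genes). The design had assumed counts, and rounding was the only change. The common dispersion was 0.00192. The members and lists were chosen with earlier results of these data known. Named genes were the members, *PON1*, and in each list those past the adjusted p, the 3 highest per length and the highest and lowest log2FC. Others named (*ALB*, *SERPINA1*, *TTR*, *APOA1*, *HP*, *CYP7A1*, *PCK1*, *RBP4*, *APOH*, *TF*, *SOX4*, *APOB*, *LIPC*, *ONECUT2*, *NR1I3*, the blood, collagen and endothelial markers) were chosen after their values were seen. Exon lengths and gene coordinates came from GENCODE v29 (GRCh38), which lacks 255 of the identifiers. Alternatives were RLE, leaving out the filter, a minimum of 10 counts per library, DESeq2 1.42.0, limma-voom (limma 3.58.1), the replicate block, counts not rounded and each library left out. Those for *SPP1* and the list medians were added after the data were seen. The fits were tested on simulated counts. Within a group, any pair of libraries differed beyond sampling noise (chi-square per degree of freedom 2.11 to 4.11).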

Additional observations from a re-analysis of the deposited data

How the results depend on the processing

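Across all alternatives run, 0 members passed an adjusted p under 0.05. With all libraries, an unadjusted p under 0.05 in edgeR reached 0 with the replicate block and 2 without it. *FOXA2* was reached as well without PON1-OE replicate 3 (unadjusted p = 0.0260 in edgeR). With single libraries left out the log2FC ranged from -0.0258 to 0.0693 for *HNF4A*, -0.39 to -0.15 for *FOXA1*, 0.08 to 0.15 for *FOXA2*, -0.14 to 0.0061 for *FOXA3*, -0.19 to -0.09 for *CEBPA*, -1.48 to -0.85 for *ONECUT1*, -0.20 to 0.0786 for *NR5A2* and -0.0606 to 0.04995 for *PROX1*, and 6.13 to 7.33 for *PON1*. The signs turned without NC replicate 3 (*HNF4A*), PON1-OE replicate 3 (*FOXA3*, *NR5A2*) or PON1-OE replicate 2 (*PROX1*), and the other alternatives turned none. The median of the members was -0.14 to 0.0061 and that of the biliary and progenitor markers -0.0466 to 0.0422 (-0.0051 without NC replicate 2 and -0.0134 without NC replicate 3). The lowest adjusted p of a member under any alternative was 0.266, for *CEBPA*. DESeq2 gave *PON1*, *FOXA1*, *FOXA3*, *NR5A2*, *PROX1* and *ONECUT1* no adjusted p, and at least 10 counts in every library left *PON1* and *ONECUT1* without a value.

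Over all genes, 81 passed the adjusted p. The count was 177 without the filter, 1325 at an unadjusted p under 0.05 and 6 with a change of over 1.5-fold in addition, and 11 to 104 with single libraries left out. With the replicate block it was 40, and *SPP1* lost its call (adjusted p = 0.0663). The deviations of same-numbered libraries from the group means correlated at 0.0173, -0.02 and 0.0205, and no library correlated best with its own number. Whether same-numbered libraries were prepared together is not given in the sources used here, and these correlations cannot settle it. By the adjusted p the block called 0 members, as did the fit without it. With the block the unadjusted p in edgeR was 0.0582 for *FOXA1* and 0.0549 for *CEBPA*. The depth limits *ONECUT1* and the scarce hepatocyte targets, where a library holds few counts.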
